A study of Mus musculus with 80 samples.

Results

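The 4 input libraries of the ChIP-BS experiment gave a shallow, whole-genome view of cytosine methylation in mouse embryonic stem cells (ESCs) of the wild-type line E14. They are 4 of the 80 samples in the series: 2 from cells grown in serum with LIF (serum ESCs) and 2 from cells grown in 2i (2i ESCs), a serum-free N2B27 medium with LIF, the MEK inhibitor PD0325901 and the GSK3 inhibitor CHIR99021. Inputs are sheared chromatin that was bisulfite sequenced without antibody. The labels give no time in 2i for these libraries, and the study describes the 2i cells of this experiment as long-term cultures. All 4 libraries come from 1 cell line, and nothing in the labels says that replicates were separate cultures, so that p-values measure only the spread between these samples, which may be technical. The labels could not be checked against marker genes, since these libraries hold no RNA. The members were the autosomal windows of 10 kb with 20 or more calls in every one of the 4 libraries, after positions with over 20 calls in any of them were left out. Of 238442 autosomal windows with a call, 218547 passed. A call is 1 read of 1 cytosine in a CpG, and methylation is the percent of calls that were methylated.

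In mammals, 5-methylcytosine (5mC) sits mostly at CpG sites. DNMT1, brought to newly replicated DNA by UHRF1, copies it onto the new strand, while DNMT3A and DNMT3B set it de novo. Most CpGs of a somatic or serum ESC genome are methylated, whereas CpG-dense islands at gene starts are usually kept free of it, and ESCs in 2i are known for a much lower level across the genome. Bisulfite sequencing reads 5mC and 5-hydroxymethylcytosine alike. In bulk cells it also cannot tell a level shared by all cells from a mixture of methylated and unmethylated cells.

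The libraries held between 17325308 and 19995773 calls, of which 14297566 to 16705851 lay in the windows. Each was thin, since 61.2% to 63.8% of the covered positions had a single call, and the median window held 62 and 71 calls in the serum libraries and 69 and 61 in the 2i libraries. Counting error was therefore small for the genome and large for a single window. Intervals below are 95% Wilson intervals and cover counting error only, as reads without molecular identifiers are not independent molecules.

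Methylation was far lower in 2i ESCs than in serum ESCs across the windows. Pooled over the windows, 74.3% of calls were methylated in serum 1 (interval 74.29 to 74.34) and 73.2% in serum 2 (73.14 to 73.19), against 33.7% in 2i 1 (33.67 to 33.71) and 33.7% in 2i 2 (33.70 to 33.74). The mean was 73.7% ± 0.81 in serum ESCs and 33.7% ± 0.02 in 2i ESCs (SD, n = 2 each), a difference of -40.03 percentage points. The 2i level was thus 45.7% of the serum level, a ratio called the share kept from here on. It was 45.3% when 2i 1 was set against serum 1 and 46.1% when 2i 2 was set against serum 2. Over all deposited calls, with the positions over 20 calls and the other chromosomes included, 74.7% and 73.6% were methylated in serum and 37.2% and 37.7% in 2i, a share kept of 50.5%. Both 2i libraries lay below both serum libraries, by far more than replicates differed. An exact two-sided permutation test of 2 libraries against 2 has 6 arrangements and gave p = 0.33, the smallest that it can give.

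The fall moved the whole distribution of windows and did not split it. The median window was 76.1% and 75% methylated in the serum libraries and 32.6% in each 2i library. From the 5th to the 95th percentile, windows ran from 51.9% to 88.7% in serum 1 and from 51.0% to 87.4% in serum 2. The same range was 14.6% to 53.2% in 2i 1 and 14.04% to 53.8% in 2i 2. Windows at 60% or more made up 89.8% and 89.0% of all windows in serum and 1.84% and 2.04% in 2i. At the other end, windows under 20% rose from 0.24% and 0.25% of all windows in serum to 12.6% and 13.2% in 2i. Most of the 2i genome, 85.6% and 84.7% of windows, lay between 20% and 60%.

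**Figure D1:**
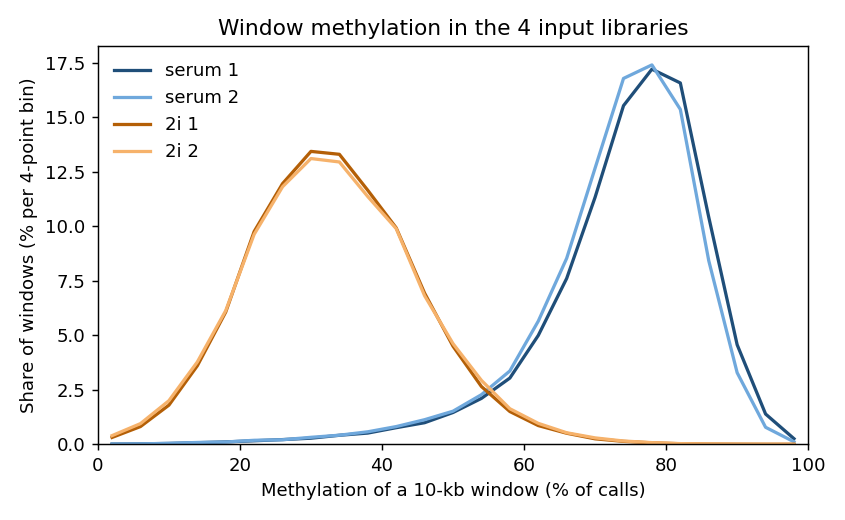
Share of the 218547 windows (percent per bin of 4 percentage points, y axis) against methylation of the window (percent of calls, x axis), 1 line per input library. Each 2i line is a single broad peak with its median at 32.6%, and the serum lines peak above it, with medians of 76.1% and 75%.

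Nearly every window fell. A quasi-binomial fit of methylated and unmethylated calls per window, with the dispersion moderated by limma's squeezeVar and Benjamini-Hochberg adjustment over all windows, called 211615 windows lower in 2i by 20 points or more (96.8% of those tested) and 1 window higher (0.000458%). In 216880 windows (99.24%) both 2i libraries lay below both serum libraries, and in 11 both lay above. A higher pooled level in 2i was found in 85 windows, 2 of them at an unadjusted p under 0.05. A fall of 20 points or more at any p was found in 211830 windows, so that nearly all windows not called lower had a smaller fall. No gene can be given for the windows named here, as no annotation of their genome build, NCBIM37, was used.

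Among windows with 50 or more calls in every library, the largest fall lay at chr19:28720001-28730000, which was 82.1% and 87.6% methylated in the serum libraries and 4.27% and 16.2% in the 2i libraries. Its difference was -76.2 points (adjusted p = 2.41e-12, quasi-binomial test with limma's moderation). Next came chr11:119020001-119030000, at 87.1% and 90.5% in serum and 14.96% and 16.7% in 2i. Both windows were highly methylated in serum, with every 2i library far below, and the media did not overlap. The others were chr19:15480001-15490000 (89.6% and 75.9% in serum, 12.4% and 11.1% in 2i), chr19:32390001-32400000 (85.3% and 81.6%, then 12.1% and 13.5%) and chr16:54170001-54180000 (81.7% and 87.3%, then 14.5% and 13.2%). No window at this depth was called higher.

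The single window called higher was thinner, with 29 to 54 calls per library, and was picked out after its values were seen. At chr11:100570001-100580000, 16.7% of calls were methylated in serum 1 (interval 8.70 to 29.6) and 12.5% in serum 2 (5.86 to 24.7), against 48.3% in 2i 1 (31.4 to 65.6) and 31.5% in 2i 2 (20.7 to 44.7). Both 2i libraries lay above both serum libraries, by 22.8 points in the pooled calls (adjusted p = 0.00598, same test), although the interval of 2i 2 overlapped those of both serum libraries.

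The share kept rose with CpG density. Positions were grouped by the number of CpG sites within 100 bp, with sites taken from the positions that any of the 8 ChIP-BS libraries covered. A CpG with no neighbor was 73.4% and 72.2% methylated in the serum libraries and 30.8% and 30.9% in the 2i libraries, a share kept of 42.4%. It then rose with every class, to 45.2% at 2 sites, 47.5% at 3 to 4, 49.2% at 5 to 8 and 57.6% at 9 to 14. Levels and shares did not run together. At 15 or more sites, the density of CpG islands, 24.1% and 20.8% of calls were methylated in serum and 14.3% and 14.2% in 2i, a share kept of 63.2%. In that class the serum libraries differed more than elsewhere, so that the share was 59.0% in replicates 1 and 68.1% in replicates 2. The order of the 6 classes was the same in both. In points, the fall shrank from -42.0 for a lone CpG to -8.26 in the densest class. The share kept in the densest class exceeded that of lone CpGs by 20.9 points, and by 42.0 points when the positions with over 20 calls were kept.

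The rise with density was also present where the serum genome was highly methylated. The H3K9me2-bound libraries, made from chromatin of the same 2 media, were used to pick stretches of 500 bp with 10 or more calls and 80% methylation or more in serum, so that the inputs did not choose them. This grouping was added after the rise had been seen. In the 962175 stretches of this kind, the inputs were 78.7% and 77.5% methylated in serum and 35.7% and 35.8% in 2i at lone CpGs, a share kept of 45.7%. At 15 or more sites they were 87.1% and 86.2% in serum and 62.3% and 62.3% in 2i, a share kept of 71.9% (71.5% in replicates 1, 72.3% in replicates 2). Both ends of this scale thus began from a high serum level, and the dense end held the most methylation in 2i of any density class examined. The classes between followed in order, at 48.4%, 50.9%, 53.9% and 63.4%. In stretches at 60% to 80% the share kept went from 36.8% at lone CpGs to 58.6% in the densest class, and in stretches at 20% to 60% from 30.1% to 52.3%. In stretches at 60% to 80% the densest class kept 54.4% in replicates 1, below the 55.2% of the class before it, and 63.2% in replicates 2. In stretches under 20% the first 4 density classes kept 30.6%, 32.5%, 30.4% and 31.7%, with no steady rise, and the last 47.5% and 50.7%. These last shares rest on low levels, at 11.6% and 4.33% in serum and 5.53% and 2.19% in 2i. The densest class of the groups at 20% to 60% and 60% to 80% rested on no more than 1708 calls in its thinnest library, against 8466 in the stretches at 80% or more.

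**Figure D2:**
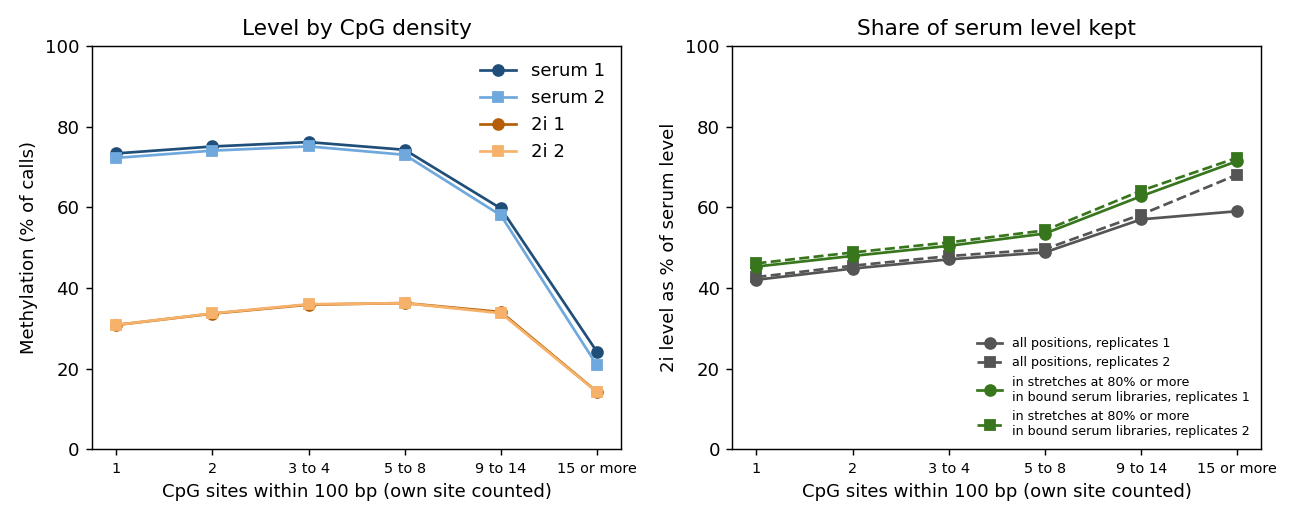
Left, methylation (percent of calls) in each input library by the number of CpG sites within 100 bp of a position, where the 2i libraries lie over each other. Right, 2i level as percent of serum level in replicates 1 (solid) and 2 (dashed), for all positions (gray) and for stretches at 80% or more in the bound serum libraries (green), where it rises from 45.7% to 71.9%.

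Over whole windows the same order was weaker. Windows were cut into 5 groups by their number of CpG sites. The group with the fewest sites, 6 to 45 per window, was 73.0% and 71.8% methylated in serum and 28.6% and 28.7% in 2i, and kept 39.6%. The following groups kept 44.1%, 47.3%, 48.1% and 48.7%. The gain was thus nearly over by the middle of the range, and the group richest in CpGs was not the most methylated in either medium, at 71.3% in serum and 34.7% in 2i.

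Windows that were more methylated in serum also kept a larger share. To keep counting error out of the trend, windows were classed by their level in serum 1 alone and read in the other libraries. The 525 windows under 20% in serum 1 were 20.05% methylated in serum 2 and 6.70% and 6.75% in the 2i libraries, a share kept of 33.6%. The 123820 windows at 60% to 80% read 73.3% in serum 2 and 32.4% in each 2i library, and kept 44.3%. The 7565 windows at 90% or more read 80.6% in serum 2 and 43.5% and 43.6% in 2i, and kept 54.0%. The share rose with each of the 6 classes, over 36.6% at 20% to 40%, 39.5% at 40% to 60% and 49.7% at 80% to 90%. In the bound libraries' classes of stretches, at any CpG density, it rose likewise from 33.2% under 20% to 35.5%, 41.0% and 49.5%.

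**Figure D3:**
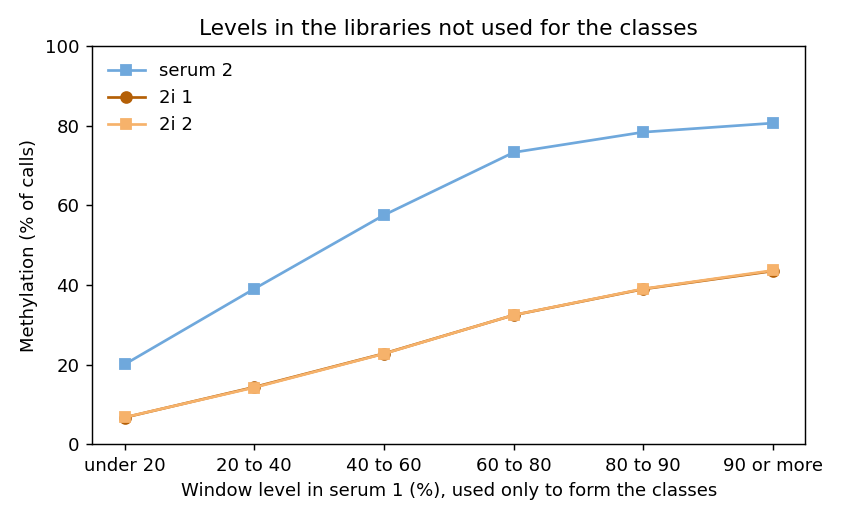
Methylation (percent of calls, y axis) in serum 2, 2i 1 and 2i 2 for windows classed by their level in serum 1 (x axis), which is not drawn. The 2i libraries lie over each other and climb from 6.70% and 6.75% to 43.5% and 43.6%, while serum 2 climbs from 20.05% to 80.6%.

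What set windows apart in 2i recurred between the 2i libraries. Windows under 10% in 2i 1 were 12.9% methylated in 2i 2, and those at 60% or more in 2i 1 were 58.5% there. The 5 classes between read 21.6%, 28.1%, 34.6%, 40.6% and 47.1% in 2i 2. The lowest class was low in serum as well, at 43.8% and 42.3%, and the highest was high, at 83.9% and 83.2%. Each of the end classes held 4024 windows, or 1.84% of all windows.

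Single windows were noisy, and much of the difference between replicates was counting error. Across the 218547 windows the serum libraries correlated at r = 0.62, the 2i libraries at r = 0.63, and a serum with a 2i library at r = 0.45 to 0.48. These are descriptions across windows, which share libraries and depth. The variance of the difference between replicates was 1.61 times that of counting error in serum and 1.46 times in 2i. The part of the spread that both replicates shared had an SD of 9.16 points in serum and 9.55 points in 2i, so that windows of the 2i genome differed among themselves as much in points at a mean level far lower. With counting error taken out in this way, the correlation between the serum and the 2i level of a window was 0.73.

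A second test asked which windows departed from the genome as a whole, whose median change was -1.81 in natural log odds. Against a null in which every window changed by that amount, 844 windows fell less (0.386% of those tested) and 123 fell more (0.0563%), by the same quasi-binomial test with limma's moderation and adjustment over all windows. These counts were fragile. They fell from 967 in all to between 79 and 281 when 1 library was left out, to 281 without serum 1, 217 without serum 2, 89 without 2i 1 and 79 without 2i 2. By limma on log2 ratios none of the 218547 windows passed, and the lowest adjusted p was 0.336. At an unadjusted p under 0.05 in that fit, 13125 of the 218547 windows fell less and 10904 fell more. On the scale of the share kept in place of log odds, 19452 of the 218547 windows departed. Of these, 9154 had a higher and 10298 a lower 2i level than the genome-wide share gives. The surplus of windows that fell less was thus not present on that scale. The members of the list are therefore given as examples.

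Of the windows with 50 or more calls, chr2:146830001-146840000 stood at 49.1% and 50.0% in serum and 57.1% and 62.1% in 2i, with both 2i libraries above both serum libraries. It departed by 2.20 in natural log odds (adjusted p = 1.00e-05, quasi-binomial test with limma's moderation). That p is for departure from the genome-wide fall and not for a rise. The quasi-binomial test of 2i against serum gave an adjusted p of 0.158 for this window, and the intervals of all 4 libraries overlapped. The largest departure upward, 2.24 at chr14:106290001-106300000, came from a window that was low everywhere, at 16.1% and 6.78% in serum and 14% and 15.1% in 2i. The others were chr1:38680001-38690000 (59.3% and 35.2% in serum, 50% and 40% in 2i), chr14:73920001-73930000 (38.5% and 41.9%, then 30.4% and 57.3%) and chr19:53670001-53680000 (21.2% and 25.5%, then 33.3% and 18.3%). In these and in the window named before them, the serum and 2i libraries overlapped. All were windows of middle or low serum methylation. None had a lower level in 2i when the calls of each medium were pooled. That follows from the choice, as each departure was larger in size than the median change of -1.81 in natural log odds.

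Downward, the largest departure was at chr3:89660001-89670000, with 44.0% and 50.0% in serum and 0 of 105 calls in 2i 1, which allows a level of up to 2.86% by a floor of 3 calls and 3.53% by the Wilson interval, and 1 of 82 calls (1.22%) in 2i 2. It departed by -2.91 in natural log odds (adjusted p = 0.0135, same test). The windows at chr5:143560001-143570000 (50.5% and 37.0% in serum, 0.885% and 2.59% in 2i) and chr10:86240001-86250000 (50.7% and 50.7%, then 1.14% and 3.33%) had the same form. Their adjusted p-values for departure were 0.0463 and 0.0405 by the same test, close to the limit of 0.05. All 3 were partly methylated in serum and at or under 3.33% in 2i, without overlap between the media. The others were the windows at chr19:28720001-28730000 and chr11:119020001-119030000 given above.

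Libraries that had no part in the choice showed the same order for the lists, with smaller distances. The 844 windows kept 80.7% of their serum level in the inputs that chose them, where they were 61.4% and 59.9% methylated in serum, below the 74.3% and 73.2% of all windows, and 48.8% and 49.1% in 2i. In the H3K9me2-bound libraries they were 79.1% and 78.4% methylated in serum and 50.7% and 50.9% in 2i, a share kept of 64.5%, against 49.5% over all windows. Their serum level there was nearer to that of all windows, which was 81.3% in each bound library. At the 962 positions in 256 of them that reduced representation bisulfite sequencing (RRBS) of the same line covered at 40% or more in serum, the RRBS level went from 81.7% and 82.5% in serum to 54.5% and 55.3% after 168 h of 2i, a share kept of 66.9% against 49.5% over all windows. The 123 windows that fell more kept 18.6% in the inputs, 40.1% in the bound libraries and 36.3% at 79 RRBS positions in 20 windows. The windows that fell less held 104.5 CpG sites on average and those that fell more 81.6, against 70.9 over all windows. Both lists were also deeper, with a median of 94 and 76.5 calls per window and library against 66, and the part of depth in the calling was not tested. Of the 844 windows, 34 (4.03%) had another of the list directly on one side or the other. The list held 0.386% of all windows, but a window can have a neighbor on each side. These shares are therefore not like measures, and clustering was not tested.

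A choice made in replicates 1 and read in replicates 2 gave the size of such differences in libraries not used for the choice. Among 108852 windows with 50 or more calls in every library and at 60% or more in serum 1, the 1088 with the highest share kept in replicates 1 kept 85.3% there and 71.4% in replicates 2. The 1088 with the lowest kept 15.5% and 31.4%. All 108852 windows kept 45.5% and 46.6%. The recurring part of the difference thus ran from 31.4% to 71.4%, on either side of the genome, and the high group held 96.6 CpG sites per window against 63.6 in the low group.

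Regions of 1 Mb, where a bin held at least 50 windows, were measured closely enough to compare one by one. All 2363 bins had both 2i libraries below both serum libraries, as 99.24% of single windows had. The share kept ran from 30.1% to 68.6%, with 38.1% and 52.3% as the 5th and 95th percentile. Across bins it correlated at r = 0.93 between replicates 1 and replicates 2, a description over bins that share their libraries. It was only weakly related to the number of CpG sites (r = 0.24). When bins were put in 10 groups of like size by replicates 1, the lowest group kept 38.4% and the highest 53.0% in replicates 2. The highest group was also the more methylated in serum 2, at 75.4% against 71.0%.

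The 3 bins that kept the most in replicates 1 were at chr9:3000001-4000000, chr12:20000001-21000000 and chr1:7000001-8000000. The first was 76.5% and 76.7% methylated in serum and 51.9% and 53.3% in 2i, and kept 67.8% and 69.5%. The second kept 64.4% and 62.4%, with 48.8% and 46.4% in 2i, and the third 61.1% and 60.5%, with 45.2% and 44.7%. Their serum levels, between 73.9% and 76.7%, were near those of the genome, so that they stood apart by the 2i level. The bins held 95, 58 and 88 windows, with 10758, 4259 and 5950 calls in the thinnest library. The median over bins was 6028 calls, and the part of depth was not tested.

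The 3 bins that kept the least were at chr7:68000001-69000000, chr11:38000001-39000000 and chr6:45000001-46000000. They kept 28.9% and 31.4%, 30.6% and 30.8%, and 31.9% and 33.0%. The first was also low in serum, at 61.1% and 59.2%, with 17.6% and 18.6% in 2i. The third was at 75.3% and 72.8% in serum, like the bins that kept the most, and at 24.0% and 24.0% in 2i. They held 37.8, 45.3 and 38.7 CpG sites per window, against 53.4 to 72.7 in the bins that kept the most.

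**Figure D4:**
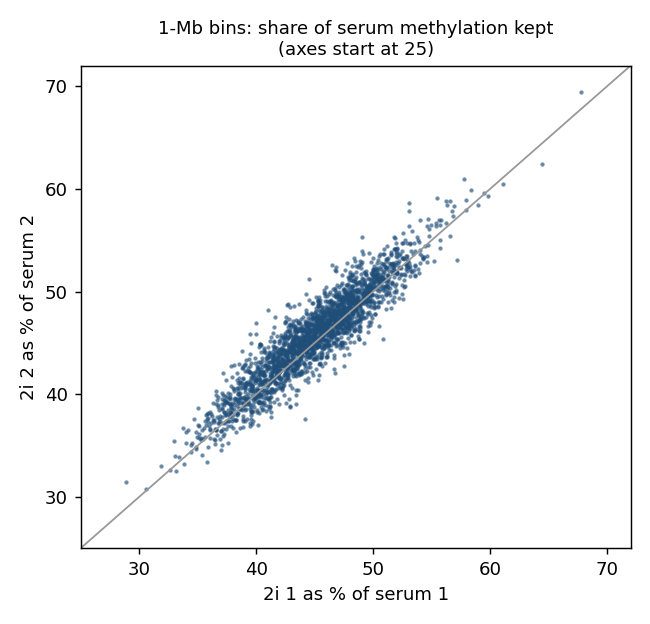
Share of the serum methylation kept in each of 2363 bins of 1 Mb, 2i 1 as percent of serum 1 (x axis) against 2i 2 as percent of serum 2 (y axis), with the line of equality. Both axes start at 25, points follow the line (r = 0.93), and the bin at 67.8% and 69.5% stands alone at the top.

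The likeness of windows in their change declined with distance. The change of a window correlated at r = 0.21 with that of the next window, 0.13 at 50 kb, 0.11 at 100 kb, 0.07 at 500 kb and 0.05 at 1000 kb, over 199271 to 204959 pairs of windows. Counting error of single windows is contained in these values and lowers them.

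Chromosomes differed little. All 19 autosomes fell, from between 71.3% and 74.9% in serum to between 32.0% and 35.6% in 2i. The share kept ran from 44.0% on chromosome 16 (43.6% in replicates 1 and 44.4% in replicates 2) to 47.8% on chromosome 13 (47.4% and 48.1%). Chromosome 16 was above the autosomal mean in serum, at 75.2% and 74.0%, with 32.7% and 32.8% in 2i, while chromosome 13 was at 75.1% and 74.0% in serum and 35.6% in each 2i library. The ends of the order recurred while several chromosomes between them changed places, with r = 0.99 between replicates 1 and replicates 2 over the 19 autosomes as a description, and replicates 2 gave the higher share on every autosome. The first 5 Mb of the covered part of the autosomes (8382 windows) kept 49.0%, the last 5 Mb 44.8% and the stretch between them 45.6%.

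The X chromosome, outside the members, held 10914 windows under the same rule and was 75.5% and 74.5% methylated in serum and 35.4% in each 2i library. It kept 47.3%, 1.56 points more than the autosomes, within the range of single autosomes. This direction turned to -3.38 points when the positions with over 20 calls were kept. On the Y chromosome 71.2% and 69.8% of calls were methylated in serum and 35.8% and 35.2% in 2i, a share kept of 50.3% over at least 10592 calls per library. Mitochondrial DNA, which gives a measure of calls where little methylation is found, stood at 0.42% and 0.43% in serum and 0.46% and 0.49% in 2i, over 473 positions and with no maximum of calls. No level of the nuclear chromosomes came near this background.

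**Figure D5:**
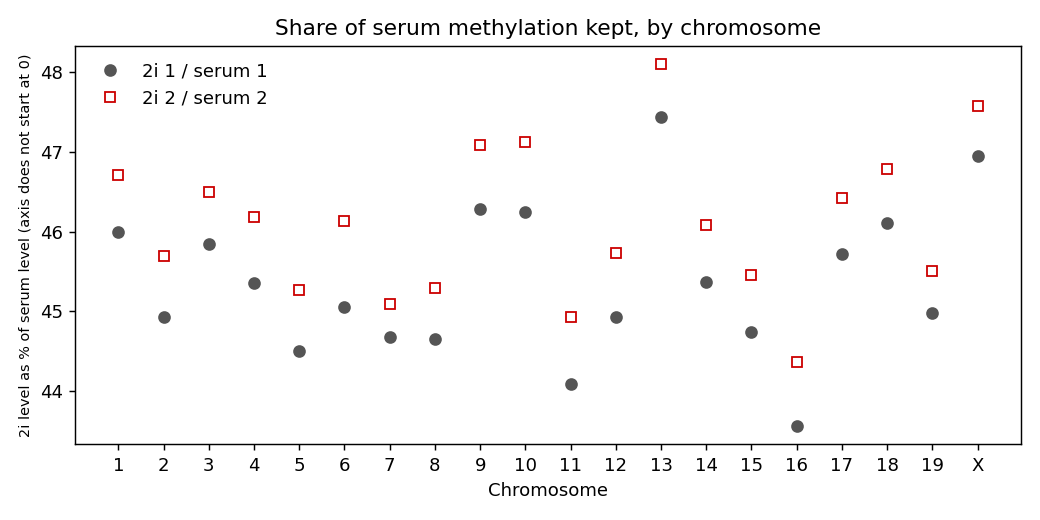
Share of the serum methylation kept (2i level as percent of serum level, y axis not starting at 0) on each autosome and the X chromosome, for replicates 1 (filled circles) and replicates 2 (open squares). Replicates 2 lie higher on every chromosome, and chromosome 13 is the highest and chromosome 16 the lowest autosome in both.

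The H3K9me2-bound libraries were more methylated than the inputs in both media over the same windows, at 81.3% in each serum library and 40.4% and 40.1% in the 2i libraries. They kept 49.5% where the inputs kept 45.7%, while the fall in points was nearly as large, at -41.1 against -40.03.

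RRBS libraries of the same line, cut to CpG-rich fragments, gave a second reading of single positions. Of the 654522 autosomal positions with 5 or more calls in all 12 E14 RRBS libraries, 134295 were also called in any of the inputs. Each input held 47712 to 62235 calls there, fewer than the positions, so that each read only a part of them. There the inputs were 39.97% and 36.7% methylated in serum and 17.9% and 17.8% in 2i, and kept 46.6%. The RRBS libraries were at 39.3% and 39.7% in serum and at 19.95% and 20.3% after 168 h of 2i, and kept 51.0%. The RRBS levels are means over all 134295 positions, while the input levels are shares of calls. The 2i cultures may also differ in time, and the values are given side by side.

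Positions were then classed by RRBS and read in the inputs. The 77819 positions under 10% in serum RRBS were at 2.72% in the serum inputs and at 1.55% in the 2i inputs, a share kept of 57.1% at levels that were the nearest of the classes to the mitochondrial level. Positions at 10% to 50% went from 27.8% to 6.78% and kept 24.4%, the lowest share of the 3 classes above 10%. Those at 50% to 80% went from 64.9% to 19.99% and kept 30.8%. Positions at 80% or more went from 84.1% to 46.0% and kept 54.6%. The share kept thus climbed over the 3 classes above 10%. In the RRBS libraries themselves the class under 10% kept 38.5% and the class at 80% or more 58.2%, and the share of the lowest class in the inputs rests on levels too near the background to be ranked.

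Positions split by how much methylation they held in RRBS were in the same order in the inputs. Among the positions at 80% or more in serum RRBS, the 2527 that were still at 80% or more after 168 h were 92.0% and 91.7% methylated in the serum inputs and 77.7% and 76.3% in the 2i inputs, a share kept of 83.8%. The 1972 that were under 20% after 168 h were at 79.0% and 73.8% in the serum inputs and at 20.8% and 20.9% in the 2i inputs, a share kept of 27.3%. The groups between, at 20% to 50% and at 50% to 80% after 168 h, were at 34.3% and 52.2% in the 2i inputs and kept 42.5% and 60.4%. The 4 groups kept their order in both 2i inputs, neither of which was used to form them. The groups at 80% or more and under 20% after 168 h held only 1396 to 1875 and 817 to 1123 calls per input.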

How the data were processed

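The inputs are wild-type E14 chromatin bisulfite sequenced without antibody. Per the submitters' processing notes, reads were processed with Trim Galore 0.3.5, Bowtie2 and Bismark 0.12.3. The authors deposited, per covered CpG position on NCBIM37, whole-number counts of methylated and unmethylated calls, which were used here (per strand, not normalized), and a percent, which was not. RRBS and bound libraries were read likewise.

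Positions with over 20 calls in any input were left out, calls were summed over autosomal 10-kb windows, and windows with 20 or more calls in all 4 inputs were kept. A quasi-binomial logistic fit per window (limma 3.58.1, R 4.3.3; median dispersion 1.46) tested medium, with calls at an adjusted p under 0.05 and 20 points, and departure from the median log odds change. Both fits were tested on simulated windows. Named windows were the 5 with the largest fall, up to 5 that rose, and the 5 with the largest departure each way, among called windows with 50 or more calls per library. Named bins were the 3 highest and 3 lowest in replicates 1. Shares kept, classes, bins and RRBS comparisons are descriptions without a test. Windows and lists were chosen with earlier results of these data known. Alternatives were call limits, window size, weighting, density radius, tool and left-out libraries.

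Shallow calls give single windows wide intervals. The dispersion of each window was drawn toward a value shared by all windows, with 42.59 prior degrees of freedom. The spread between replicates of a single window therefore had little weight in its p-value. The labels do not say whether the numbers of the replicates pair the samples, and the main fits did not pair them.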

Additional observations from a re-analysis of the deposited data

Results flagged for a closer look

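No outlying library could be sought with 2 libraries per medium. Signal outside the main measurement was found in 2 places. The 2697 positions with over 20 calls, left out above, held 10.8% to 12.1% of the autosomal calls and were methylated at 80.5% and 80.1% in serum and at 68.0% and 68.5% in 2i. Their mean was 80.3% in serum and 68.3% in 2i, a share kept of 85.0%. Mitochondrial positions had a mean of 0.425% in serum and 0.475% in 2i, above the limit that a count of 0 allows at 42227 to 55325 calls per library. The cause was not tested for either.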

How the results depend on the processing

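The global difference of -40.03 points was -36.7 with the positions over 20 calls kept, and -40.6 to -39.5 with 1 library left out. With those positions kept, the share kept at the densest minus the sparsest CpGs was 42.0 points against 20.9, and X minus autosomes was -3.38 against 1.56. With 1 library left out these were 16.8 to 25.6 and 1.51 to 1.60. The share kept in the lowest minus the highest serum class was -20.49, and -20.2 with those positions kept, -20.54 with a limit of 10 calls, -23.7 and -20.3 at 50 and 10 calls per window, and -23.1 for 20-kb windows. It was -20.52 to -20.46 with 1 2i library left out, and leaving out a serum library was not possible, as one forms the classes and the other is read. The 5-to-95 percentile range of 1-Mb bins was 14.2 points, 14.8 at 50 calls per window and 14.2 to 14.5 with 1 library left out. Windows called in either direction numbered 211616, 205147 to 207169 with 1 library left out, 114736 at 50 calls per window and 116316 in 20-kb windows, where fewer windows were tested. Departing windows numbered 967, 79 to 281 with 1 library left out, 1686 in 20-kb windows, 19452 on the scale of the share kept and 0 by limma on log2 ratios (13125 and 10904 fell less and more at an unadjusted p under 0.05). The replicate block gave 1775 departing windows and 211585 called. All these departure counts came from 218547 tested windows, except in 20-kb windows, where 117993 were tested. At 50 or more calls per window, 880 of 117668 departed. Departing windows were thus a larger share of those tested in both of these settings than in the main fit. Across windows, same-numbered libraries did not deviate together (r = -0.0038). A shift common to a whole library drops out of this value, so it cannot tell whether the samples were paired. Within stretches at 80% or more in the bound serum libraries, chosen after seeing the data, the density difference was 26.2 points. Of 52 alternatives other than left-out libraries over 7 results, 37 kept their direction and stayed within 1 SD between replicates (counts within 1.5 times). Of the rest, 14 moved further, some by little where that SD was small, and 1 reversed, and the cause was not tested. Counts were compared as numbers and not as shares of the windows tested, which were fewer at 50 calls per window and in 20-kb windows. A medium left with 1 library was assumed to vary like the other. Depth limits single windows, whose median held 61 to 71 calls per library.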
